A study of Mus musculus with 8 samples.

Results

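Foxa2 binding sites that were listed in old but not in young mouse liver, and that lay close to a young site, are described here. Sites were chosen by their position in the deposited lists: a site had to belong to the Foxa2 list of old liver, overlap no site of the young Foxa2 list or of either Hdac3 list by even 1 bp, and have a young Foxa2 site within 10000 bp of its nearest edge. Of the 12834 sites of the old Foxa2 list 1734 met this rule, 13.5% of the list (exact 95% interval 12.9 to 14.1) and 17.3% of the 10038 old-only sites that overlapped no Hdac3 site. They are called adjacent old-only sites below. The other 8304 old-only sites without Hdac3 overlap, all further than 10000 bp from a young site, are called distant, and the 2690 old sites that overlapped a young Foxa2 site are called shared. A further 106 old-only sites overlapped an Hdac3 site and were left out by the rule, 36 of them within 10000 bp of a young site. Distance to young sites and overlap with the other lists chose the sites, so these are given as descriptions.

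Foxa2 is a forkhead transcription factor of the endoderm and is made in hepatocytes and bile duct cells. It is known as a pioneer factor, which can bind its target DNA on nucleosomes and make the surrounding chromatin reachable for other factors. In adult liver it takes part in the control of bile acid, lipid and glucose genes, and its sites often lie in clusters with those of other liver factors within enhancers. Hdac3 removes acetyl groups from histones as part of corepressor complexes that nuclear receptors recruit, and is known for its control of lipid metabolism in liver.

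The sites came from chromatin immunoprecipitation with sequencing (ChIP-seq) on snap-frozen liver of wild-type C57BL/6 mice at 3 months (young) and 21 months (old). Foxa2 and Hdac3 were each measured at both ages with 2 libraries per group, 8 in all. Both libraries of a group were represented by 1 deposited list of sites, so no value had a replicate error and no test of age was made. The sources used here do not say whether the libraries came from separate animals, nor how deeply each was sequenced. For Foxa2 the young list held 6604 sites and the old list 12834, and for Hdac3 the numbers were 5828 and 2930. Positions are those of the mm9 build as the lists give them. The lists carry no gene names, and neither genes nor tissue markers were assigned to the sites. In chromatin of whole liver, a site bound in more cells and a site bound more often per cell cannot be told apart. The intervals below are exact binomial intervals over sites and cover counting error. Neighbouring sites share their surroundings, so they are not independent.

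Adjacent old-only sites became denser towards young sites, with the exception of the stretch from 100 to 200 bp. Their median distance to the nearest young site was 3444 bp (quartiles 1351 and 6464), and 342 of them (19.7%, 17.9 to 21.7) lay within 1000 bp. Per 100 bp of distance there were 63 sites at up to 100 bp, 26 at 100 to 200 bp, 39 at 200 to 500 bp, 27.2 at 500 to 1000 bp, 24.6 at 1000 to 2000 bp, 17.2 at 2000 to 5000 bp and 12.6 at 5000 to 10000 bp, each range without its lower bound. The density went on falling past the limit of the rule, to 8.53 distant sites per 100 bp at 10000 to 20000 bp and 5.04 at 20000 to 50000 bp. Position relative to the young site was near balance: the young site lay at the lower position for 903 sites (52.1%, 49.7 to 54.5) and at the higher position for 831. Most of the sites, 1420 (81.9%), had 1 young site within 10000 bp, 258 had 2 and 56 had 3 or more, and 170 (9.80%) had young sites on both sides.

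The number of sites followed the choices in the rule. With q of at most 0.05 required in both Foxa2 lists it was 839, with a distance limit of 5000 bp it was 1104, and with overlap counted only when at least 50% of both sites was covered it was 3205. The site just inside the limit, on chromosome 10 from 7571686 to 7571767, lay 9998 bp from its young site and had an enrichment of 13.9 and a q of 0.0669. The distant site just outside, on chromosome 11 from 3060463 to 3063362, lay 10004 bp away and was 2900 bp wide, with an enrichment of 1.24 and a q of 0.00664.

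**Figure D1:**
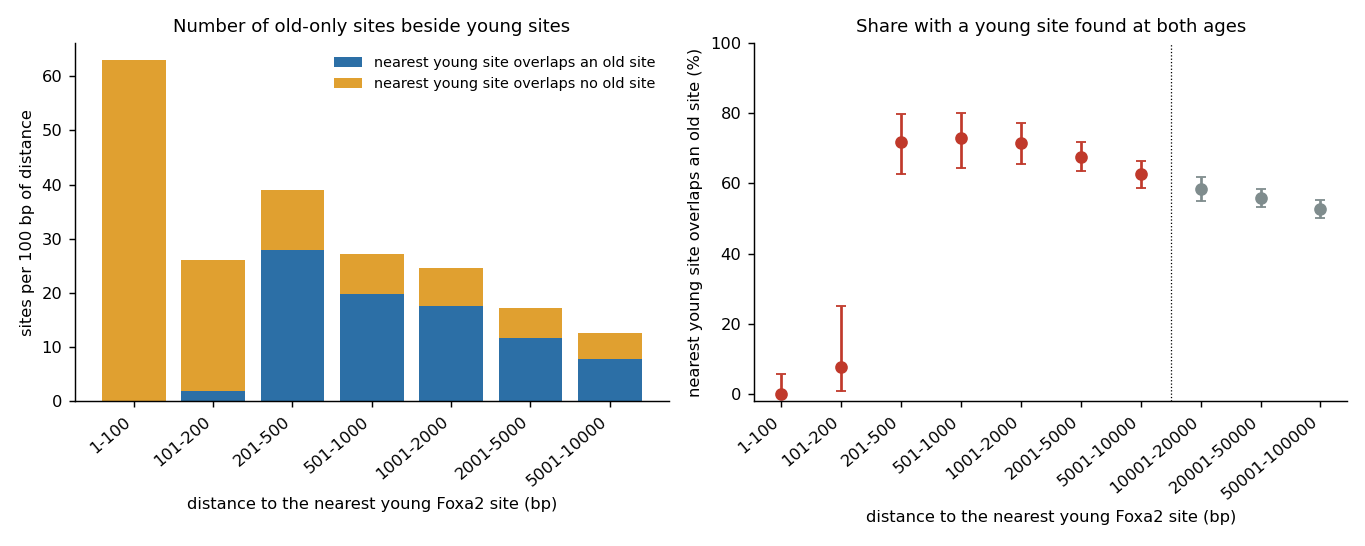
Left, adjacent old-only Foxa2 sites per 100 bp of distance to the nearest young Foxa2 site, split by whether that young site overlaps an old site; right, share of old-only sites whose nearest young site overlaps an old site, with exact 95% intervals, for adjacent (red) and distant (grey) sites. Apart from the nearest 200 bp, the density falls from 39 per 100 bp at 200 to 500 bp to 12.6 at 5000 to 10000 bp. Within 100 bp the share is 0 of 63 sites, and the low share within 200 bp was set in advance by the spacing of the lists.

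Most adjacent old-only sites lay next to a young site that was itself still listed in old liver. At up to 500, 500 to 2000 and 2000 to 10000 bp, the nearest young site overlapped an old site for 86 of 206, 275 of 382 and 743 of 1146 adjacent sites. Together this held for 1104 of the 1734 (63.7%, 61.4 to 65.9), and for 630 the nearest young site overlapped no old site. Counted once each, the nearest young sites were 1326, 20.1% of the young list, and 824 of them (62.1%, 59.5 to 64.8) overlapped an old site. Over the whole young list the share was 40.7%, and over the 5278 other young sites it was 35.4% (34.1 to 36.7). Distant old-only sites, too, mostly had a nearest young site found at both ages: 58.4% at 10000 to 20000 bp (55.0 to 61.7), 55.9% at 20000 to 50000 bp (53.3 to 58.4) and 52.6% at 50000 to 100000 bp (50.1 to 55.2). The share thus went on declining past the limit of the rule and was not confined to adjacent sites. The nearest young sites also had lower q-values, with 31.3% at a q of at most 0.01 against 18.5% of the other young sites, and were wider, with medians of 55 bp and 36 bp.

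The difference was present in each range of young q rank. The nearest young sites were chosen by a nearby site of the old list, and overlap with the same list was then counted. Crowding in the old list can therefore raise their share by selection. The ranges do not allow for width, and some of the other young sites also had an adjacent site within 10000 bp. Among young sites of rank 1 to 1000, 97.1% of those nearest to an adjacent site overlapped an old site (94.5 to 98.6) and 92.2% of the others did (90.0 to 94.1). Over the next 1000 ranks the shares were 79.8% and 64.4%, from there to rank 4000 they were 45.7% and 23.7%, and over the remaining ranks up to 6604 they were 38.9% (163 of 419) and 16.3% (357 of 2185). The best-ranked young sites were more often beside an adjacent old-only site than later ones. Of ranks 1 to 1000, 30.6% were the nearest young site of one, against 16.1% of those after rank 4000. Overlap here means at least 1 bp. Under the stricter rule, in which 50% or more of each site has to be covered, 14.6% of the sites so chosen had a nearest young site that passed it. That rule also adds old sites that overlap a young site in part, mostly beside a young site that failed it. The low share is thus largely set by the rule and is no check on the shares by 1 bp.

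The closest pairs were of another kind. Within 100 bp of a young site lay 63 adjacent sites, and none of their young sites overlapped an old site (0 of 63, exact 95% interval up to 5.69%). At 100 to 200 bp it was 2 of 26 sites, whereas at 200 to 500 bp it was 84 of 117 (71.8%, 62.7 to 79.7). Inside the old list no 2 neighbouring sites lay closer than 202 bp, and inside the young list none closer than 201 bp. An old site on the young one would therefore have stood nearer to the adjacent site than any pair in the old list, unless the young site was wide, so the low share within 200 bp was set in advance by the spacing of the lists.

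The young sites in these closest pairs were narrow, as were other young neighbours that overlapped no old site. For the 63 sites within 100 bp the young site had a median width of 16 bp and the old site 88 bp. The old site was the wider one in 54 pairs (85.7%), against 71.3% of all 1734 adjacent sites. The young sites of pairs more than 200 bp apart, mostly found at both ages, had a median of 58 bp. Over all distances the median young width was 21 bp where the young site overlapped no old site and 83 bp where it did. The nearest pair lay on chromosome 6, where the old site from 31166515 to 31166602 (enrichment 63.2, q 0.0921) began on the base after a young site of 10 bp from 31166505 to 31166514 (enrichment 190.0, q 0.0309). On chromosome 5 the old site from 149862935 to 149863103 had an enrichment of 226 and a q of 6.84e-07, and the young list held a single base at 149862933, with an enrichment of 4126 and a q of 0.0241. At both places a young and an old site stood side by side without a shared base.

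A further 3 of the nearest pairs were separated by 3 bp. On chromosome 1 the old site from 172358379 to 172358498 had a q of 0.00667 and its young neighbour, 6 bp wide, a q of 0.0303. On chromosome 2 the old site from 27532751 to 27532842 had an enrichment of 30.3 beside a young site of 8 bp with 215. On chromosome 7 the old site from 148703629 to 148703728 had an enrichment of 5.44 beside a young site of 47 bp with 6.30. Counting sites at most 200 bp apart as shared, for all lists, left 1620 adjacent sites, of which 69.2% then had a nearest young site found at both ages. There, an old site within 200 bp of the young one was enough, and the closest pairs with their low share were left out. By overlap, 1102 of the 1645 adjacent sites more than 200 bp from a young site had one found at both ages (67.0%).

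Within the old list the adjacent sites resembled the distant ones far more than the shared ones. Shared sites were defined by overlap with a young site, which wider sites reach more easily. Over the whole old list width and q had a Spearman's rho of -0.90, so part of the difference in both can follow from this definition. The median width was 99 bp (quartiles 68 and 130) in adjacent, 88 bp (57 and 117) in distant and 161 bp (128 and 207) in shared sites. A q of at most 0.01 was reached by 22.5% of adjacent (20.5 to 24.5), 18.4% of distant (17.6 to 19.2) and 74.5% of shared sites (72.8 to 76.1), against 30.8% of the whole old list. The deposited enrichment, the authors' ratio per site, had medians of 21.2 (quartiles 12.3 and 34.3), 21.4 (12.3 and 37.0) and 27.0 (15.3 and 42.9). Adjacent sites were thus somewhat wider and of lower q than distant ones, while their enrichment medians were close. With q of at most 0.05 required in both Foxa2 lists and the classes formed anew, adjacent and distant sites had median widths of 128 bp and 123 bp.

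**Figure D2:**
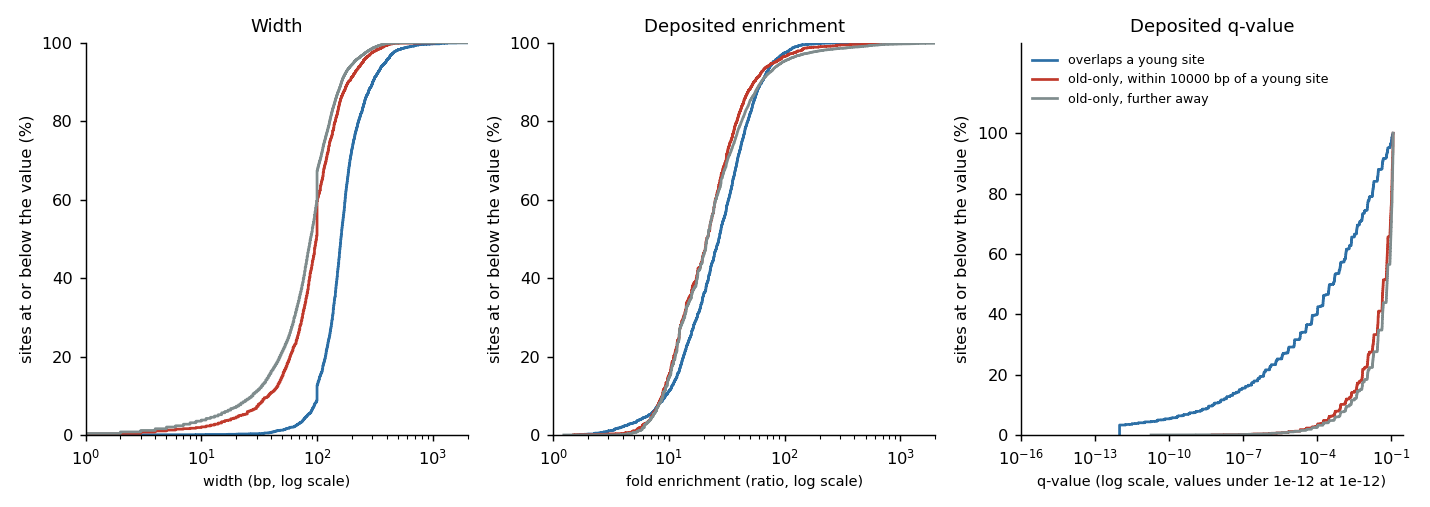
Cumulative share of old Foxa2 sites by width (bp), deposited enrichment (ratio) and q-value, each on a log axis, for shared (blue), adjacent (red) and distant (grey) sites. The red and grey curves run close together in all 3 panels, and the blue curve is shifted to wider sites (median 161 bp against 99 and 88 bp) and lower q.

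The share of old-only sites that were adjacent declined along the q ranking. When the 10038 old-only sites were put in 5 equal groups by q rank, 20.2% of the first group (18.5 to 22.0), 19.6%, 18.8%, 15.6% and 12.2% of the last group (10.8 to 13.7) lay within 10000 bp of a young site. The last group held q-values from 0.109 to 0.12 and had a median width of 36 bp. By width the share rose from 12.8% (11.4 to 14.3) in the narrowest group to 21.3% (19.6 to 23.2) in the widest. Wider sites had lower q: across adjacent sites Spearman's rho of width and q was -0.87, and across the 1734 sites width and enrichment had a rho of -0.11. Distant sites had the same rounded values, -0.87 and -0.11. These points share 1 list and its depth, and the values are descriptions.

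**Figure D3:**
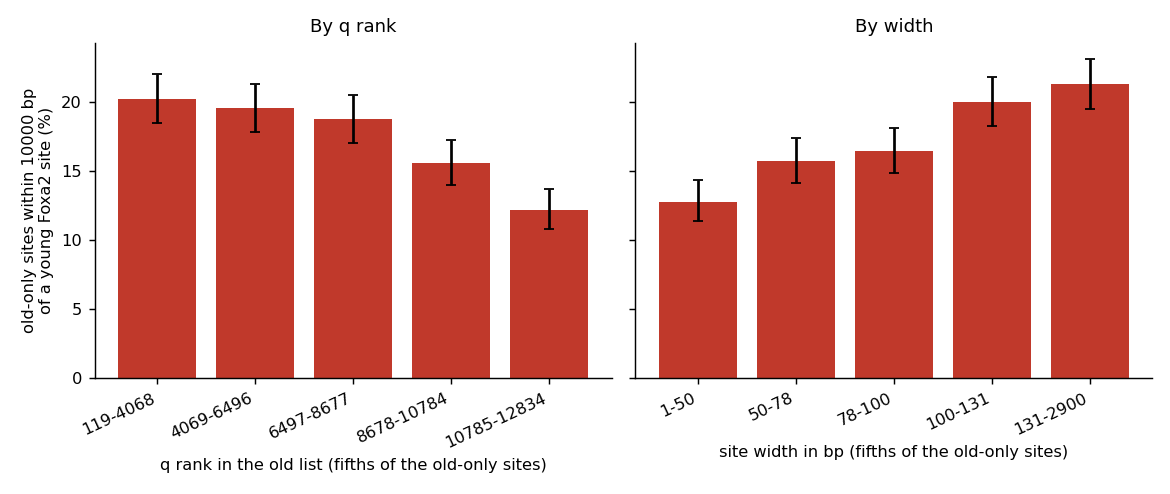
Share of old-only Foxa2 sites within 10000 bp of a young site, in 5 equal groups by q rank (left) and by width (right), with exact 95% intervals. The share declines from 20.2% to 12.2% with later rank and increases from 12.8% to 21.3% with width.

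Very high enrichment belonged mostly to very narrow sites of weak q. Of the 60 adjacent sites with an enrichment of 100 or more, 42 (70.0%, 56.8 to 81.2) were under 30 bp wide, and 2 had a q of at most 0.01. Such an enrichment was found in 3.46% of adjacent, 4.67% of distant and 4.05% of all old Foxa2 sites. Widths under 30 bp made up 6.75%, 10.9% and 8.06%, so neither trait was particular to adjacent sites. The highest value was 1135, at 2 bases on chromosome 15 from 31188344 to 31188345 with a q of 0.118, 3253 bp from a young site of q 9.27e-06 that was still listed in old liver. The next were 799 and 747, both at sites of 3 bp on chromosome 8, at 118348836 and 114233419, then 642 at 3 bp on chromosome 7 at 46568608 and 574 at 16 bp on chromosome 18 at 63860150. The q of these 5 sites ran from 0.11 to 0.119, near the end of the list at 0.12. None of the 117 adjacent sites under 30 bp reached a q of 0.01 (exact 95% interval up to 3.10%), whereas 124 of the 152 sites of 200 bp or more did (81.6%, 74.5 to 87.4). Enrichment and q therefore ranked these sites in different ways.

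The 10 adjacent sites with the lowest q were broad, from 169 to 459 bp, with enrichments from 17.4 to 226 and q of at most 1.36e-06. The first, on chromosome 10 from 17441859 to 17442255, had a q of 5.62e-09 and rank 267 in the old list. Its young neighbour, 5049 bp away, was weak, with a q of 0.12 and rank 6558 of 6604, yet an old site of enrichment 39.3 covered it. The second, on chromosome 1 from 67163109 to 67163557, had an enrichment of 36.5 and stood 2964 bp from a young site of q 0.0151. The third, on chromosome 5 from 113568448 to 113568701, stood 1232 bp from a young site with a q of 0.00241 and 972 bp from a young Hdac3 site. The old sites on their young neighbours had ranks 3786, 652 and 2328. The adjacent sites named here were picked for their low q, so their order against these old sites follows in large part from that choice.

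The following sites showed the same layout at other distances. On chromosome 5 from 130509985 to 130510168 the site had an enrichment of 20.2 and rank 463, and the old site on its young neighbour, which was 2384 bp away, had 50.4 and rank 573. On chromosome 10 from 127330720 to 127330992 the site had rank 487 and the old site on its young neighbour rank 389, and on chromosome 8 from 41977329 to 41977787 the ranks were 507 and 317. In these last 2 the old site on the young one was the better ranked. On chromosome 1 from 193268361 to 193268620 the young neighbour was 726 bp away with a q of 0.00463, and on chromosome 15 from 85563230 to 85563441 it was 9803 bp away. For 8 of the 10 the young neighbour overlapped an old site, which had the lower q rank in 2 of these 8 pairs.

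The other two had a young neighbour that old liver did not list. They were the site on chromosome 5 beside the single young base, described above, and a site on chromosome 8 from 87497767 to 87498209 with an enrichment of 17.4 and a q of 1.36e-06. The latter stood 3260 bp from a young site of q 0.00976 and 1926 bp from a young Hdac3 site. Of the same kind, with slightly higher q, were the sites on chromosome 19 from 41422738 to 41423096 (q 2.41e-06), on chromosome 10 from 123283804 to 123283983 (q 3.89e-06) and on chromosome 5 from 51680615 to 51680762 (q 1.17e-05). Their young neighbours, 8639, 4686 and 2832 bp away, were 8, 46 and 12 bp wide. As a class, the 630 adjacent sites beside a young site not listed in old liver had a median width of 91 bp, and 18.7% had a q of at most 0.01 (15.8 to 22.0). The 1104 beside a young site found at both ages had a median of 100 bp, and 24.6% reached that q (22.1 to 27.3).

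Where the young neighbour was found at both ages, the old list held a pair of sites, an adjacent one and a shared one. Shared sites had lower q than old-only sites throughout the old list, with a median rank of 1868 against 6938 in adjacent sites, so the values of the pairs describe this class difference and nothing particular to the pairs. In 962 of these 1104 pairs (87.1%, 85.0 to 89.1) the old site on the young site had the lower q rank, in 906 (82.1%) it was wider, and in 696 (63.0%, 60.1 to 65.9) it had the higher enrichment. Its median width was 170 bp and its median rank 1631, against 100 bp and 6655 for the adjacent sites. The pair stood a median of 3427 bp apart.

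Adjacent sites often came in groups. Another adjacent site lay within 10000 bp for 715 of them (41.2%, 38.9 to 43.6). The rule itself gathers adjacent sites around young sites with the same limit of 10000 bp, which can raise such shares. How far it does so was not tested. Counting any old-only site without Hdac3 overlap, 44.9% of adjacent sites had a further one within 10000 bp (42.5 to 47.2), against 27.0% of distant (26.0 to 27.9) and 36.5% of shared sites (34.7 to 38.4). With q of at most 0.05 in both Foxa2 lists, which shortens them, 27.1% of the adjacent sites had another adjacent one that near. Of the young sites 1615 had at least 1 adjacent old-only site within 10000 bp, 1169 of them exactly 1, 333 had 2 and 113 had 3 or more.

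The young site with the most such neighbours was on chromosome 16 from 38287570 to 38287669, with an enrichment of 29.0 and a q of 0.000986. Old liver held a site of 533 bp over it, with an enrichment of 43.0 and a q of 1.04e-11, and 6 adjacent old-only sites that spread over 15.1 kb, with enrichments from 15.3 to 65.4. At the next place, on chromosome 9 from 61220282 to 61220305, the young list held 3 narrow sites of 19 to 24 bp with q near 0.028, and no old site overlapped the one at the centre. The 5 old-only sites there ranged from 4 to 235 bp in width. Both layouts, around a site kept at both ages and around one that was not, occurred among the most crowded places.

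On chromosome 6 a weak young site of 33 bp from 121255863 to 121255895, with a q of 0.039, was covered by an old site of 252 bp with a q of 0.00151. It had 5 adjacent old-only sites with q from 0.0284 to 0.107. On chromosome 4 the young site from 149168227 to 149168267 overlapped no old site but had 5 old-only sites nearby, 1 of them 90 bp away, and a young Hdac3 site at 149166420. On chromosome 15 the strong young site from 79152197 to 79152319, with an enrichment of 65.2 and a q of 5.45e-06, was covered by an old site of 427 bp. All 4 of its old-only neighbours lay at higher positions.

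**Figure D4:**
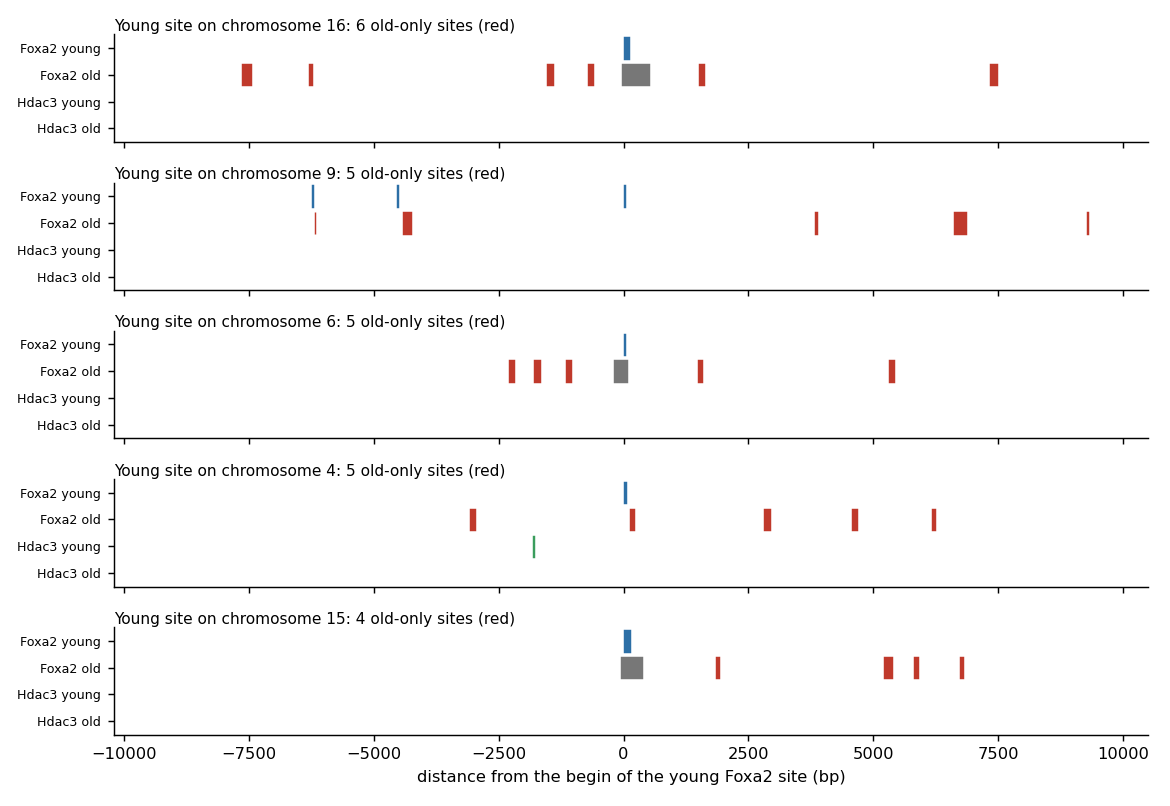
Sites of the 4 lists within 10000 bp of the 5 young Foxa2 sites with the most adjacent old-only sites, drawn to scale by distance in bp from the begin of the young site; adjacent old-only sites are red, other old Foxa2 sites grey, young Foxa2 sites blue and young Hdac3 sites green. A grey old site covers the central young site in 3 of the 5 places. The place on chromosome 4, which has no such old site, is the only one with an Hdac3 site.

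Among old Foxa2 sites that overlapped no Hdac3 site, Hdac3 was listed near adjacent ones more often than near the others. An Hdac3 site of either age lay within 10000 bp of 355 adjacent sites (20.5%, 18.6 to 22.5), 843 distant sites (10.2%, 9.51 to 10.8) and, among shared sites that overlapped no Hdac3 site, 341 (13.7%, 12.4 to 15.2). Over all old Foxa2 sites without Hdac3 overlap it was 12.3%. For young Hdac3 the shares were 16.4%, 8.02% and 10.8%, and for old Hdac3 5.82%, 2.41% and 3.91%. The order of the classes was thus the same for both Hdac3 lists, which differed in length, so the ages were not compared. Sites that overlap Hdac3 were left out, which lowers each share, and for either age that of shared sites the most. Of the 2690 shared sites 2482 remained. Of the old-only sites within 10000 bp of a young site, 36 were left out and 1734 remained. With the overlapping sites counted as near Hdac3, the shares of adjacent and shared sites for either age would lie much closer together. Among the adjacent sites 30 had Hdac3 of both ages that near (1.73%, 1.17 to 2.46), against 23 distant sites (0.277%, 0.176 to 0.415). These 30 include the 8 sites of a crowded block on chromosome 1 described below, and this share was not recomputed without crowded places. For Hdac3 of either age the ratio between adjacent and distant sites was 2.02. Outside the 18 windows of 100 kb with 6 or more sites of an Hdac3 list, the shares for either age were 19.9% and 10.1%.

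**Figure D5:**
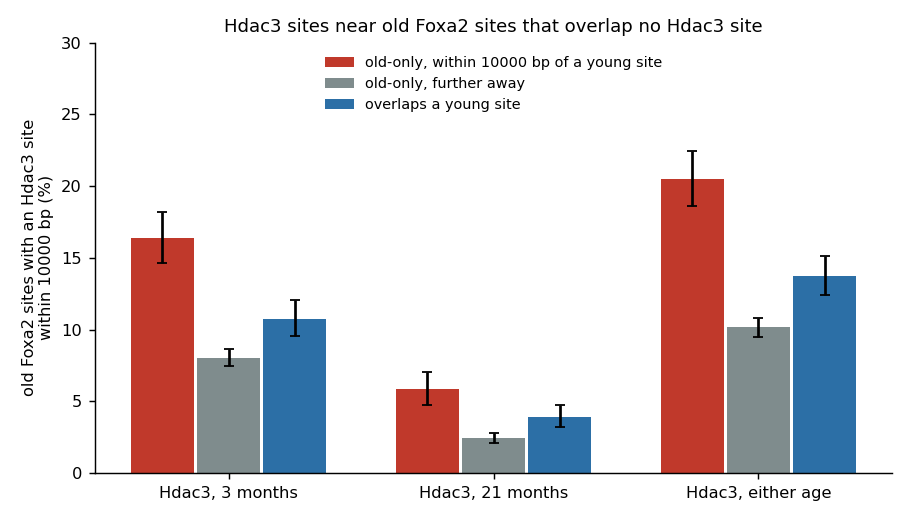
Share of old Foxa2 sites without Hdac3 overlap that have an Hdac3 site of 3 months, 21 months or either age within 10000 bp, for adjacent (red), distant (grey) and shared (blue) sites; error bars are exact 95% intervals for counting error. Adjacent sites have the highest bar in each group, 20.5% for either age. Sites that overlap Hdac3 are left out, which lowers the either-age bar of shared sites the most.

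The rule that picks adjacent sites also picks the surroundings of young Foxa2 sites, and these had Hdac3 nearby in their own right. Of the 1326 nearest young sites 19.3% had an Hdac3 site within 10000 bp or overlapping (17.2 to 21.5), and of the other young sites 17.1% (16.1 to 18.1). Few of the nearest young sites overlapped an Hdac3 site, 34 of 1326 (2.56%). The share among adjacent sites was much the same for low and high q, 21.3% at a q of at most 0.01 (17.3 to 25.7) and 20.8% above 0.05 (18.1 to 23.7). With a further old-only site within 10000 bp it was 23.3% (20.3 to 26.4), and without one 18.2% (15.8 to 20.8). In distant sites these shares were 14.0% (12.6 to 15.5) and 8.74% (8.04 to 9.48). Shared sites with an adjacent old-only site within 10000 bp had Hdac3 nearby in 17.0% of cases (14.6 to 19.5), and those without in 11.8% (10.2 to 13.5). The part that crowding of sites played in these shares was not tested.

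Adjacent sites near Hdac3 did not stand out by their own values. Their median width was 100 bp against 98 bp in the others, their median enrichment 20.8 against 21.5, and 23.4% (19.1 to 28.1) against 22.3% (20.1 to 24.6) had a q of at most 0.01. Their nearest young site was found at both ages in 64.8% (59.6 to 69.8) and 63.4% (60.8 to 65.9). The median distance from these 355 sites to Hdac3 was 3567 bp. The 3 of lowest q are the sites on chromosome 10 at 17441859, on chromosome 5 at 113568448 and on chromosome 8 at 87497767 named above, at 8186, 972 and 1926 bp from a young Hdac3 site.

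The share of old-only sites that were adjacent differed between chromosomes. Over the 19 autosomes it ran from 12.3% on chromosome 12 (51 of 414 sites, 9.31 to 15.9) to 25.3% on chromosome 18 (93 of 367, 21.0 to 30.1), with 23.3% on chromosome 14 (18.7 to 28.3) next below. Chromosome X held 7 adjacent sites, 10.4% of its old-only sites (4.30 to 20.3). It had 224 young and 109 old Foxa2 sites, whereas each autosome had more old than young sites. Why the lists differ in this way was not tested. The share had a Spearman's rho of 0.21 with the number of young sites on the chromosome over the autosomes, a description that does not allow for chromosome length.

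A block on chromosome 1 was unlike the rest. Of the 10 adjacent sites with 5 or more young sites within 10000 bp, 8 lay between 90114724 and 90207002, a stretch singled out after its values were seen, with 6 to 18 young sites around each. Their enrichment ran from 1.50 to 7.31, below the lower quartile of adjacent sites, and their q from 0.0676 to 0.119. All 8 lay within 1005 bp of an old Hdac3 site and within 2856 bp of a young one, and the nearest young site overlapped an old site for 1 of them.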

How the data were processed

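Each list gives a chromosome, begin, end, fold enrichment and q-value per site, per the file headers. The authors' enrichment is a ratio whose reference is not stated in the sources used here. The deposited q-values reach 0.12 in both Foxa2 and 0.2 in both Hdac3 lists. Per the submitters' processing notes BWA and mm9 were used. The sources used here name no peak caller, control, depth or way of combining libraries. Every site was used and the end was counted in the site. Distance runs from edge to edge, adjoining bases being 1 bp apart, and ties go to the lower q. Ranks follow q, then enrichment. Sites were named by q, enrichment, distance, young sites with most neighbours, lowest q beside a young site not kept, and lowest q near Hdac3. The count was equal with bedtools 2.31.1, and the code was tested on simulated data. Python 3.11.15, pandas 2.3.3 and scipy 1.17.1 were used. The rule, members and lists were chosen with earlier results of these data known. Genes, forkhead motifs and sequences were not analysed here, since no mm9 genome was at hand, and nothing was converted between builds.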

Additional observations from a re-analysis of the deposited data

How the results depend on the processing

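Of 72 recomputed values, 8 results under 9 alternatives, 52 moved by less than their counting interval, or for the number of sites by less than 1.5 times. All 8 did so with the end not counted, on autosomes, without regions held by all 4 lists and, chosen after seeing the data, without windows crowded with Hdac3 sites. With a limit of 5000 bp there were 1104 sites, the median distance was 1793 bp, and 31.9% had another such site within 10000 bp. With 20000 bp the median distance was 6411 bp and 18.1% had Hdac3 within 10000 bp. With q of at most 0.05 in both Foxa2 lists there were 839 sites, with a median distance of 4036 bp, a median width of 128 bp, 67.3% beside a young site found at both ages, 44.9% with a q of at most 0.01, and 27.1% with another such site nearby. With overlap of at least 50% of both sites there were 3205 sites, with medians of 388 bp for distance, 125 bp for width and 22.7 for enrichment, 14.6% beside a young site found at both ages, 45.9% with a q of at most 0.01, and 55.8% with another such site nearby. That alternative adds sites that overlap a young site in part, which largely sets its low share beside a young site found at both ages. With sites at most 200 bp apart counted as shared, the median distance was 3800 bp. Then 69.2% had a young site found at both ages, for which an old site within 200 bp was enough. Adjacent sites had Hdac3 nearby more often than distant ones under each of the 9 alternatives. Leaving out a library was not possible, as each group has 1 list. No paired analysis was possible because the lists do not keep the libraries apart. Motif alternatives were not run. Without read depths, how far depth limits the lists is unknown.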

Other observations

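Widths of adjacent old-only sites piled up at a single value. Exactly 100 bp was the width of 155 of the 1734 sites (8.94%, 7.64 to 10.4), while 16 sites were 99 bp and 12 were 101 bp wide. The q-values of these 155 sites were close together, with a median of 0.045 and quartiles of 0.0427 and 0.0477, and their median enrichment was 17.3. The same width was found in 7.82% of distant (7.25 to 8.41), 3.98% of shared (3.27 to 4.79) and 2.32% of young Foxa2 sites (1.97 to 2.71).

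Enrichment values recurred. The 1734 adjacent sites had 1029 distinct enrichment values, and 948 sites (54.7%) had a value that occurred in at least 1 other adjacent site. The most frequent value, 22.6, was given to 15 sites.

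Shared sites were also split by the presence of an adjacent old-only site. Among shared sites without Hdac3 overlap, the 931 with one within 10000 bp had a median width of 167 bp, a median rank of 1629 and a median enrichment of 28.9, and 77.6% had a q of at most 0.01 (74.7 to 80.2). The 1551 without one had medians of 157 bp, rank 1982 and 27.4, and 73.9% reached that q (71.6 to 76.1). Hdac3 of either age lay within 10000 bp of 17.0% (14.6 to 19.5) and 11.8% (10.2 to 13.5) of them.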
